A study of Mus musculus with 2 samples.

Results

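The genes described here encode the proteins of the cytosolic ribosome. They were chosen by name, as every non-control row of the arrays whose gene name is Rpl or Rps followed by a number, with the endings a, l or x allowed, together with Rplp0, Rplp1 and Rplp2. This gave 80 of the 37073 gene names on the array, 49 of the large subunit and 31 of the small subunit. Of these, 77 genes (46 large and 31 small) were measured, that is, had a probe well above background on both arrays. Total RNA came from brains of C57BL/6J mice at postnatal day 10, from a mouse of genotype GPHR F/F;Nes and a control littermate of genotype GPHR F/F, so that both carried the GPHR F/F alleles. Each sample was hybridised to 1 Agilent 1-colour array (n = 1 per group). The labels do not say what the Nes part is, which cells it acts in, or whether animals were pooled. GPHR, the Golgi pH regulator, is encoded in the mouse by Gpr89.

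The ribosome is built from a large and a small subunit, each an RNA core covered with proteins that are present once per ribosome, apart from the stalk proteins. Their genes are transcribed at high rates in growing cells and in neurons, and their mRNAs are among the most abundant of any tissue. Many of these mRNAs begin with a run of pyrimidines, the 5′ terminal oligopyrimidine (TOP) tract, through which the kinase complex mTORC1 and the RNA-binding protein Larp1 control their translation.

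The TOP tract is the sequence feature that these genes are best known to share, so 6 start regions are shown. They come from genes with such a run over the start base, the 3 highest and the 3 lowest in difference between the arrays. The values of Rpl15 and Rps15a are means over probes that differ, as given below. Each line gives 30 bases of RefSeq sequence (GRCm38.p6) on the gene's strand, the annotated start base being letter 16, with the run of C and T in capitals. The positions are chr3:90213634-90213663 (minus strand) for Rps27, chr2:39005117-39005146 (minus) for Rpl35, chr2:180257364-180257393 (plus) for Rps21, chr14:18270972-18271001 (minus) for Rpl15, chr7:118116133-118116162 (minus) for Rps15a and chr2:26910792-26910821 (plus) for Rpl7a.
Rps27: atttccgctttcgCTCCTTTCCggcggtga
Rpl35: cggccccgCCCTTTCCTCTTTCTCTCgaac
Rps21: taccgaggacccgCCCTCCTgcccaatagt
Rpl15: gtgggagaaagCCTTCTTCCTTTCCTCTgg
Rps15a: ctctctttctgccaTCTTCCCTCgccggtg
Rpl7a: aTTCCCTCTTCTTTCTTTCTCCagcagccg

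Of the 80 genes, 59 matched an entry of the RefSeq promoter table. A run of at least 7 C or T letters covered the annotated start base in 19 of these 59 (32.2%), against 6.17% of the 26966 other genes in the table. On the opposite strand, where the same run reads as A and G, the shares were 3.39% and 9.47%. The motif CTTTCC, looked for after the sequences had been seen and often lying inside such a run, occurred between 50 bases before and 50 bases after the start in 32.2% of the 59 genes and in 5.37% of the others. Its opposite strand gave 1.69% and 5.13%. The median difference between the arrays was 0.16 for the 19 measured genes with a run over the start base and 0.21 for the 37 measured genes of the table without one. A run at the annotated start was thus not accompanied by a higher median.

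Differences are in log2 units, the level in GPHR F/F;Nes less that in the control, each level being taken relative to the 75th percentile of its own array. A gene called higher or lower is so relative to that percentile. Signals in units are the scanner software's processed signal, as a geometric mean over the measured probes of a gene. The ± values are the error that the scanner software gives, a technical error. It was near 0.204 for each bright probe, whether printed in 1 spot or 10, and is smaller for a gene with more probes. With 1 array per group no difference has a replicate check, no test was made, and nothing here measures the spread between animals. The 75th percentile itself was 259.5 units on the control array against 173.4 units on the other. The difference in Gpr89, measured by 1 probe at 43.3 and 20.04 units, was -0.53 ± 0.22. The sources used here do not give the deleted part of the gene. Xist gave 234 units in GPHR F/F;Nes and 1.36 units in the control, where it was not well above background, while on the control array alone both probes of the Y-linked gene Eif2s3y stood well above background, so sex and genotype cannot be told apart. The tissue label was borne out by the 10 neuronal markers, all of which were measured.

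Relative to the 75th percentile, 73 of the 77 ribosomal protein genes had a higher level in GPHR F/F;Nes than in the control (57.0% of all 23948 genes measured had), whereas with each array centred on its median 15 of the 77 had, and after scaling to the spike-in RNAs none had. The median difference over the 77 genes was 0.16, a 1.12-fold excess, with an SD of 0.14 across genes. Over all genes the median was 0.07 and the SD 0.57. The direction thus depended on the scaling, for the members and for all genes alike. The median of all genes was -0.20 with median centring and -0.96 with spike-in scaling, beside -0.11 and -0.87 for the members. The share of all genes above 0 was counted at the 75th percentile scaling alone. The spread across the members is the same under these 3 scalings because each subtracts a constant per array. In the unscaled signals, 76 of the 77 genes were dimmer in GPHR F/F;Nes, with a median of 11329 units on the control array against 8616 units. The 75th percentile of the array was also lower there (259.5 units in the control against 173.4). A gene is dimmer unless its scaled difference reaches the gap between the 2 percentiles, which is just under the 1.5-fold threshold. As 18.1% of all genes were at least 1.5-fold higher at this scaling, most genes of the array were dimmer too. The exact share was not counted. Beside this, the 8 spike-in probes that were above background were brighter in GPHR F/F;Nes by 0.45.

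**Figure D1:**
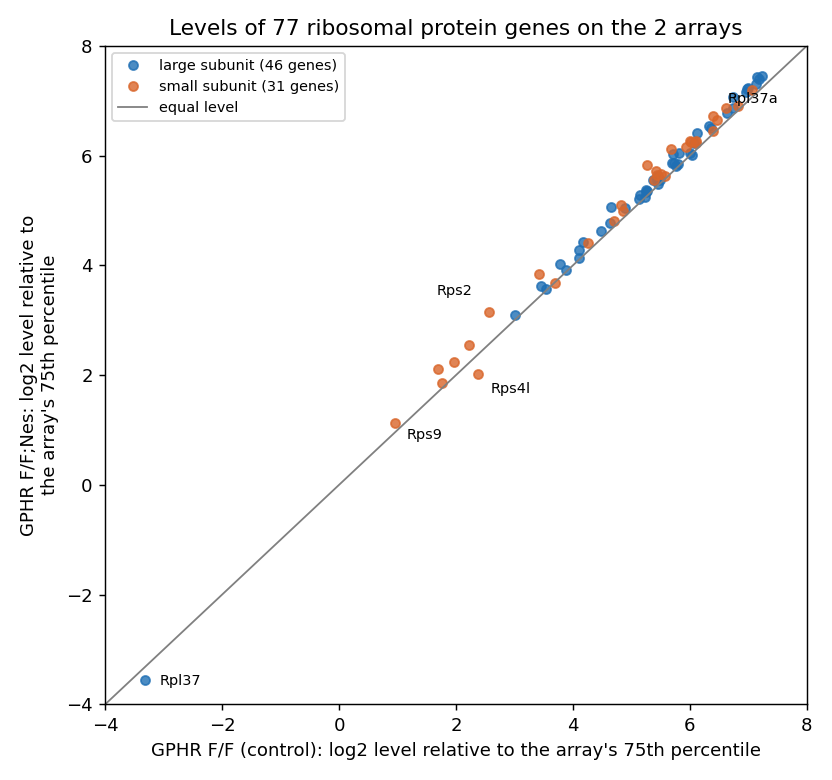
Log2 level of each of the 77 measured ribosomal protein genes in GPHR F/F (horizontal) and GPHR F/F;Nes (vertical), each array relative to its own 75th percentile, with 1 point per gene and a line of equal level. At this scaling 73 of 77 points lie above the line, against 57.0% of all genes, and Rps4l and Rpl37 lie below it. If each array is centred on its median, 15 of 77 lie above, and the median difference of all genes is then -0.20.

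Few members passed a fold threshold at this scaling. Of the 77 genes, 1, Rps2, was at least 1.5-fold higher, against 18.1% of all genes, and it rests on a single dim probe described below. None was at least 1.5-fold lower, against 5.69% of all genes. No member reached 2-fold in either direction, against 7.93% (higher) and 1.37% (lower). Most genes of the array were far dimmer than the members.

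The members' brightness sets what they can be compared with. Of the 1301 measured probes with a mean level above 5 (more than 5 log2 units above the 75th percentile), 123 (9.45%) belonged to ribosomal protein genes. All member probes together held 5.51% of the summed signal of the control array and 6.02% of that of GPHR F/F;Nes, a comparison that no scaling by a constant alters. No member probe was saturated. Signal also depends on the probe, so levels of different genes are not ranked here.

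Against other probes of equal brightness (mean level within 0.25 log2 units), the members' median difference was 0.18 higher. Of the 77 genes, 68 lay above the median of their equally bright probes. For the 17 members with a dim and a bright probe, the mean level matched can be one that none of their probes has. The other probes include 76 measured probes of ribosomal protein pseudogenes. The gap was 0.13 with probes counted singly and 0.15 with member probes of at least 1000 units alone. The gap varied with brightness. Between levels 4 and 5, 18 member probes had a median of 0.13 and 1198 other probes one of -0.12. Between levels 5 and 6, 58 member probes had a median of 0.13 and 692 other probes one of -0.06. Between levels 6 and 7 the medians were 0.18 for 40 member probes and 0.08 for 338 others. In the brightest group, between levels 7 and 8, the order was the opposite: 25 member probes had a median of 0.23 and 120 others one of 0.37, and all 25 lay below the others' median. When each gene was represented by its brightest probe, the gap fell to 0.075.

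The spread among the member probes can be set beside that of other probes of their brightness, as a description. The interquartile range of the member probes was 0.17 between levels 4 and 5, 0.10 between 5 and 6, 0.12 between 6 and 7 and 0.095 between 7 and 8. For the other probes it was 0.40, 0.40, 0.43 and 0.47. Below level 0, where 14 member probes lay, the ranges were 0.50 and 0.69.

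Probes printed many times give the technical error of a single array. Of the member probes, 64 (from 47 genes) had at least 8 spots on each array, and pooled over all such probes the SD of a spot was 0.051 in the control and 0.053 in GPHR F/F;Nes. The median of these 64 differences was 0.14, with standard errors over spots of at most 0.052. All spots of GPHR F/F;Nes lay above all control spots in 34 of the 64 probes and below them in none. Over all 291 measured probes with as many spots, members included, the shares were 43.6% and 9.28%. Over the 227 such probes of other genes they were 41.0% and 11.9%, and the difference was not tested. Spots share their RNA, so these errors leave out the spread between animals.

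The large subunit had a median difference of 0.15 (SD 0.11, 46 genes) and the small subunit one of 0.17 (SD 0.18, 31 genes). The large minus small difference of the medians was -0.027, beside an SD of 0.074 for a difference between 2 single spots. Neither this SD nor that of the genes within a subunit is the error of a difference between medians, which was not measured. Above 0 were 44 of the 46 large subunit genes and 29 of the 31 small subunit genes, against the same 57.0% of all genes. The small subunit held 5 of the 6 highest members and also the lowest. Relative to equally bright probes the medians were 0.15 for the large and 0.22 for the small subunit.

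**Figure D2:**
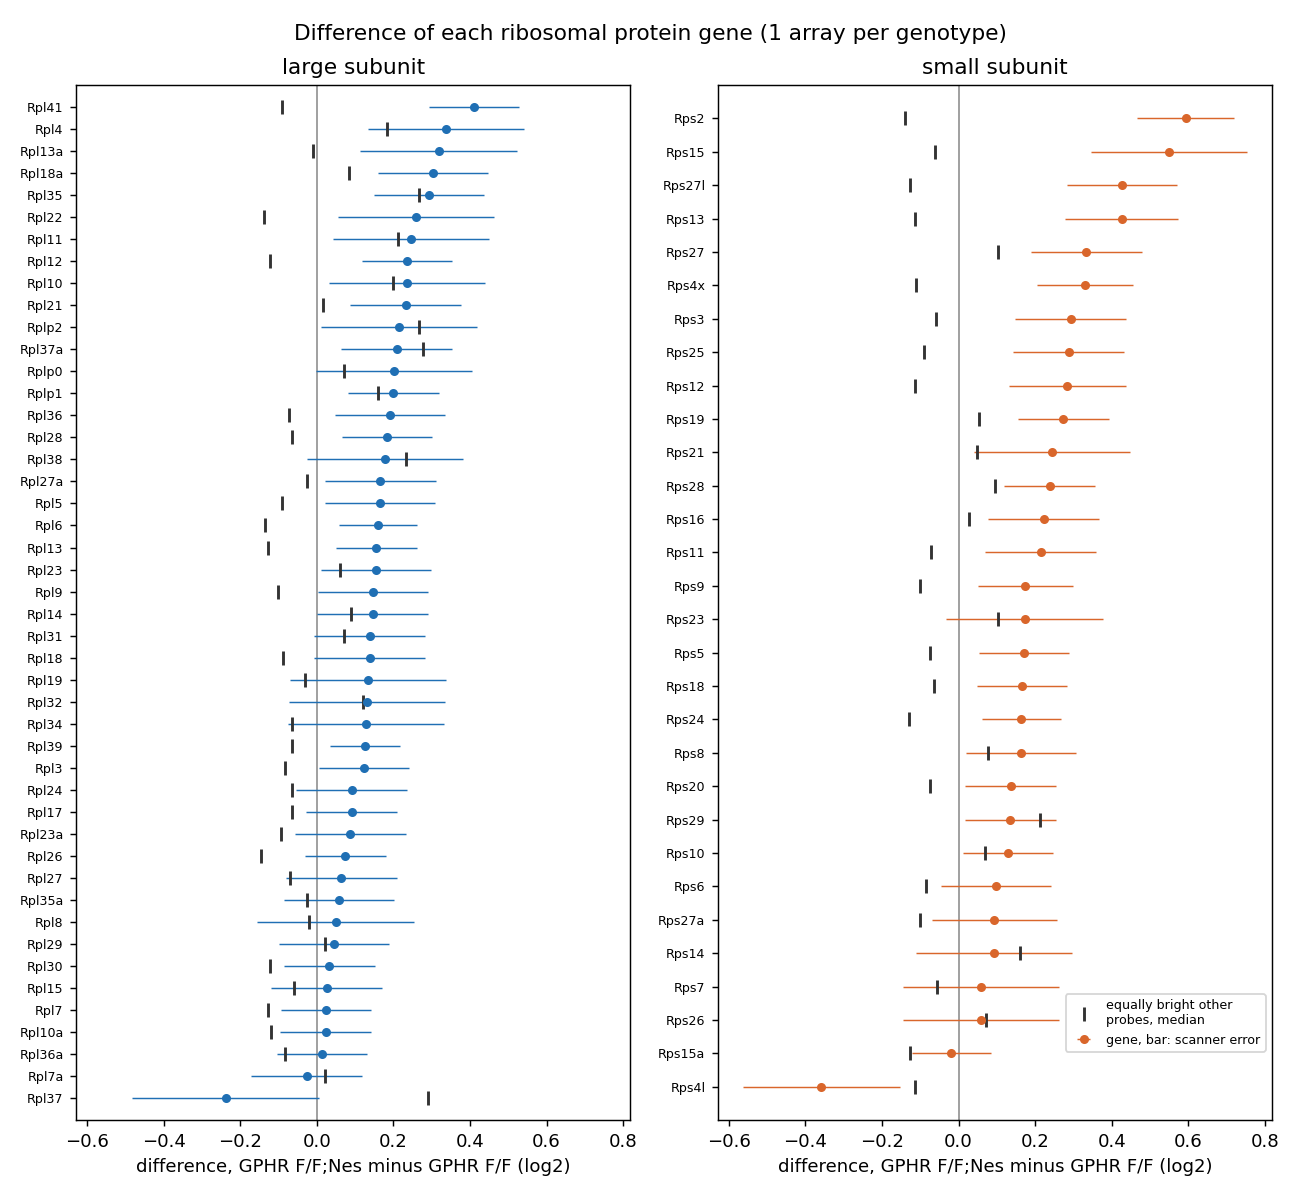
Difference of 76 of the 77 measured members (log2, GPHR F/F;Nes less control), ordered within the large and the small subunit, with the scanner software's error as a bar and the median of equally bright other probes as a tick. Rps2 is the highest at 0.59 and Rps4l the lowest at -0.36, and 67 of the 77 genes lie between 0 and 0.4 at this scaling. The direction depends on the scaling: with median centring 15 of 77 lie above 0, and the median of all genes is -0.20.

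The stalk proteins Rplp0, Rplp1 and Rplp2 form the lateral arm that recruits elongation factors to the ribosome. Rplp0 gave 20925 units in the control and 16073 in GPHR F/F;Nes. Rplp1 gave 32342 and 24829 units, and Rplp2 gave 37891 and 29376 units. Their differences were 0.20 ± 0.20, 0.20 ± 0.12 and 0.21 ± 0.20. The 3 gene values were nearly equal, but Rplp0 and Rplp2 each rest on 1 probe in 1 spot. The probes of Rplp1 lay at 0.14 (in 10 spots), 0.14 and 0.33.

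Rpl5 and Rpl11 join the 5S rRNA in a particle that, when free, binds Mdm2 and stabilises p53. Rpl5 gave 7681 units in the control and 5757 in GPHR F/F;Nes, a difference of 0.17 ± 0.14, and both of its probes lay close together, at 0.16 and 0.18. Rpl11 gave 33101 and 26245 units, a difference of 0.25 ± 0.20.

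Around the peptidyl transferase centre, where peptide bonds form, the range was wider. Rpl8, which anchors RNA at the centre, gave 14441 and 9985 units (0.05 ± 0.20), and Rpl3, next to it, gave 9242 and 6730 units (0.12 ± 0.12). Rpl10, whose loop reaches the centre and which is X-linked, gave 32567 and 25622 units (0.24 ± 0.20). Rpl4, which lines the upper exit tunnel, gave 27671 and 23369 units (0.34 ± 0.20). All 4 were above 0, as were 73 of the 77 members and 57.0% of all genes.

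At the rim of the exit tunnel, where the signal recognition particle and chaperones meet the nascent chain, all 7 genes of the list were above 0. So were 73 of the 77 members and 57.0% of all genes. Rpl35 was the highest, with 36795 units in the control and 30113 in GPHR F/F;Nes (0.29 ± 0.14). Rpl26 gave 2099 and 1477 units (0.07 ± 0.11). Rpl39, a small protein inside the tunnel with 5 measured probes, gave 9919 and 7234 units (0.13 ± 0.09), its probes lying between 0.10 and 0.16. Rpl23a (0.09 ± 0.14), Rpl17 (0.09 ± 0.12), Rpl19 (0.13 ± 0.20) and Rpl31 (0.14 ± 0.14) lay between them.

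The small subunit proteins at the entry and exit of the mRNA channel ran from 0.06 to 0.59. All 6 were above 0, as were 73 of the 77 members and 57.0% of all genes. At the exit, Rps26 gave 21902 and 15234 units (0.06 ± 0.20), Rps14 gave 29259 and 20838 units (0.09 ± 0.20), and Rps28 gave 25642 and 20201 units (0.24 ± 0.12). At the entry, Rps3, which also unwinds structured mRNA, gave 11137 and 9117 units (0.29 ± 0.14). Rps9 had a gene value of 0.17 ± 0.12 and Rps2 one of 0.59 ± 0.13, both with probes that disagreed.

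Rps6, the ribosomal target of S6 kinase downstream of mTORC1, gave 6769 units in the control and 4839 in GPHR F/F;Nes, a difference of 0.10 ± 0.14. Rps27a, made as a fusion with ubiquitin, gave 879 and 627 units, a difference of 0.09 ± 0.16. That value averages a bright probe (34743 and 27190 units, 0.23) and a dim one (22.3 and 14.4 units, -0.04). By gene value, Rps6 and Rps27a lay in the lower part of the family. The bright Rps27a probe alone lay above the family's median of 0.16.

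Loss of 1 copy of several ribosomal protein genes causes Diamond-Blackfan anaemia in people. All 10 such genes on the list, with a median of 0.15, were above 0, as were 73 of the 77 members and 57.0% of all genes. The lowest were Rps26, Rpl35a (14045 and 9771 units, 0.06 ± 0.14) and Rps7 (12370 and 8607 units, 0.06 ± 0.20). Rps10 (0.13 ± 0.12), Rps24 (0.16 ± 0.10) and Rpl5 (0.17) were near the family's median of 0.16, and Rpl11 (0.25) was above it. Rps19, the gene most often affected in patients, gave 16630 and 13436 units (0.27 ± 0.12).

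Members used as reference genes in quantitative PCR were not at 0 on this scale. Rps18 gave 11804 units in the control and 8843 in GPHR F/F;Nes (0.17 ± 0.12). Rpl13a gave 13560 and 11296 units (0.32 ± 0.20), and Rpl32 gave 27652 and 20240 units (0.13 ± 0.20). With Rps29 (34798 and 25539 units, 0.14 ± 0.12), Rplp0 and Rpl4, the 6 genes of this list ran from 0.13 to 0.34 with a median of 0.18, so that they differed from one another by up to 0.21.

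Among the paralogs of canonical members, Rps27l, a p53-inducible relative of Rps27, was among the highest of the family. It gave 2784 units in the control and 2500 in GPHR F/F;Nes, a difference of 0.43 ± 0.14, and its 2 probes lay at 0.42 and 0.43. Rps27 itself gave 21835 and 18384 units (0.33 ± 0.14), but the array coordinates (mm9) place both of its probes on chromosome 9, not on chromosome 3 where RefSeq has the gene. Rpl3l (4.82 and 3.25 units), Rpl10l (3.22 and 1.28 units) and Rpl39l (5.90 and 4.23 units), known from muscle or testis, were not well above background on either array and have no difference.

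Among the highest members after Rps2 were Rps15, Rps27l, Rps13, Rpl41, Rpl4, Rps27, Rps4x and Rpl13a. Rps15, a protein of the small subunit's head, gave 10028 units in the control and 9800 in GPHR F/F;Nes from 1 probe in 1 spot (0.55 ± 0.20). This probe lies at chr10:79756714-79756773 on mm9. A second probe downstream of it without overlap (chr10:79756807-79756866), named on the array for a pseudogene and singled out after its values were seen, gave 17175 and 14679 units, a difference of 0.36. Rpl41, the smallest ribosomal protein, gave 6556 and 5826 units (0.41 ± 0.12), with 1 dim probe at 0.71 and bright probes at 0.21 and 0.32. The X-linked Rps4x gave 1209 and 1015 units (0.33 ± 0.13), and its dim probe was again its highest, at 0.55 against 0.19 and 0.25.

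The lowest member was Rps4l, a relative of Rps4x for which the array cites a noncoding RNA entry, with 1355 units in the control and 707 in GPHR F/F;Nes (-0.36 ± 0.20). Rpl37 followed at -0.24 ± 0.24, from 1 dim probe of 26.1 and 14.8 units. Rpl7a (16989 and 11144 units) was at -0.03 ± 0.14 and Rps15a (3370 and 2222 units) at -0.02 ± 0.10. The remaining low members were Rpl36a at 0.01 ± 0.12, Rpl10a at 0.02 ± 0.12, Rpl7 at 0.02 ± 0.12, Rpl15 at 0.03 ± 0.14, Rpl30 at 0.03 ± 0.12 and Rpl29 at 0.05 ± 0.14. Apart from Rps4l, each of these values lay within its scanner error of 0. That error is wider than the standard errors over repeated spots, which were at most 0.052 for any member probe. Some of these gene values average probes that differ. For Rpl30, the probes with 10 spots gave 0.09 and 0.16, and a dim probe (527 and 319 units) gave -0.14. For Rpl15, the probe with 8 spots gave 0.18 ± 0.020 (standard error over spots), and the probe with 1 spot gave -0.13.

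Several of the extreme values came from dim probes. Of the 168 measured member probes, 149 gave at least 1000 units in the control, with differences of SD 0.13. The other 19, at 11.49 to 527 units, had an SD of 0.52 and ran from -0.47 to 1.85, and 15 of them were designed to transcripts other than RefSeq mRNAs. Among 57 members with several probes, the median SD between probes was 0.072. In 6 members the probes differed by at least 0.5, and in Rps13, Rps15a, Rpl10a and Rps9 the bright probes were alike while a dim probe differed. For Rps13, 10 spots of the bright probe (15949 and 11741 units) gave 0.14 ± 0.016 (standard error over spots), and the dim probe (43.8 and 48.0 units) gave 0.71. For Rps15a, 3 bright probes gave 0.12, 0.15 and 0.12 and the dim one (78.7 and 38.1 units) -0.47. For Rpl10a, the bright probes gave 0.22 and 0.21 and the dim one (196 and 102 units) -0.36. For Rps9, the bright probes gave 0.25 and 0.26 and the dim ones (11.49 and 72.4 units in the control) 0.36 and -0.17. Rps12, another of the dim members, combined a probe of 30.04 units (0.32) with one of 34060 units (0.25), and its gene value was 0.28 ± 0.15.

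The highest probe difference of the family was in Rps2, another discordant member, and that probe holds an alternating run of A and G. The line gives 30 bases of the probe, 5′ to 3′, with the alternating run in capitals.
Rps2: tttgtataaatAGAGAGAGggtatatacgg

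Rps2 had its repeat in a dim probe, at chr17:24858999-24859058, of 16.2 and 39.0 units (1.85). Its bright probes gave -0.11 ± 0.023 over 10 spots (16991 and 10549 units) and 0.03 (13132 and 8986 units). Without the dim probe, Rps2 is not among the high members.

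Over the whole array, 192 measured probes held at least 8 alternating letters of A and G (AGAGAGAG, or the same alternation starting with G, read on the probe's own strand). Their median difference was 1.29, and 87.0% were above 0, against a median of 0.04 for all probes without the repeat. At levels of 4 and above, 30 such probes had a median of 1.38 against -0.03. For the same repeat on the opposite strand, 160 measured probes had a median of -0.03. The repeat's part in the value of Rps2 was not tested. Without repeat probes, no member was at least 1.5-fold higher.

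**Figure D3:**
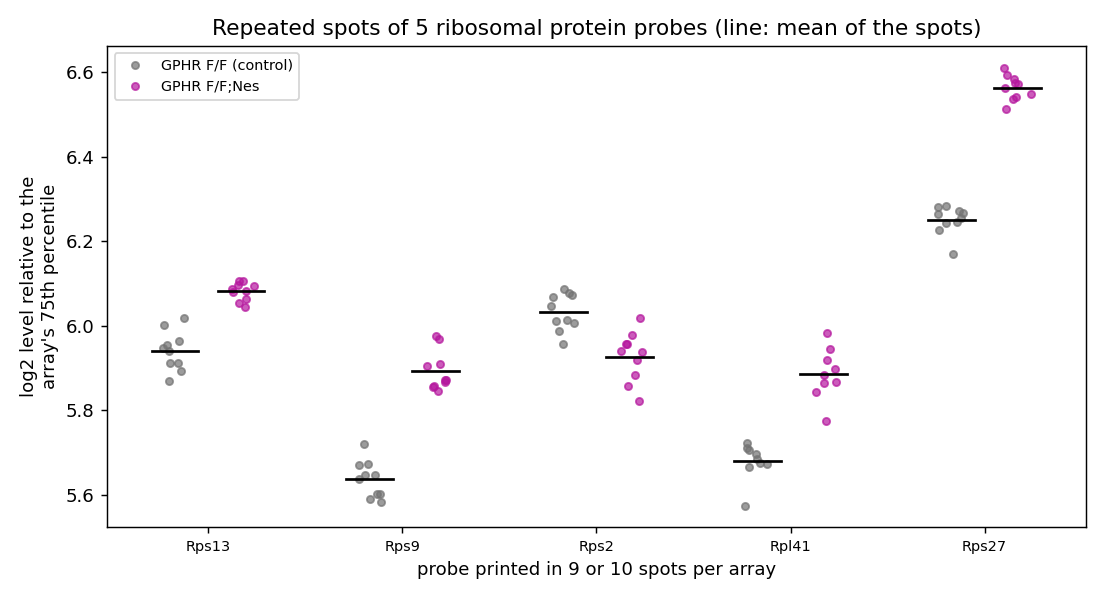
Log2 level of each repeated spot, relative to the array's 75th percentile, for 5 ribosomal protein probes with 9 or 10 spots in GPHR F/F (grey) and GPHR F/F;Nes (purple), with lines at the means. The Rps13 probe is 0.14 higher in GPHR F/F;Nes and the Rpl41 probe 0.21 higher, while the bright Rps2 probe is 0.11 lower.

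Near-identical copies limit what a probe can be assigned to. The mouse genome holds many processed copies of these genes, and 7 probes of 4 members (Rpl13, Rpl36, Rps27 and Rps29) are placed by the array coordinates on a chromosome other than that of their gene. A further 79 probes carry the name of a ribosomal protein pseudogene, and 76 of them were measured, with a median signal of 8465 units in the control and 6347 in GPHR F/F;Nes. Their median difference was 0.15, close to the median of the members' own probes (0.15), and 64 of the 76 were above 0, against 57.0% of all genes. The Rps2 probe at 0.03 is placed on chromosome 17 but far from the other probes of its gene. Signal from a gene and from its copies cannot be told apart on these probes.

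Other genes of the ribosome and of translation differed from the members in their medians. The cytosolic ribosomal proteins of other names followed the family: Rpsa (25588 and 20210 units, 0.24 ± 0.14) and Fau (0.11 ± 0.14) were above 0, while Rpl36al, a copy of Rpl36a, was at -0.09 ± 0.14. In all, 6 of these 7 genes were above 0, against 57.0% of all genes, with a median of 0.14. Of 18 other TOP mRNAs, 14 were above 0, against 57.0% of all genes. Their median of 0.07, not matched for brightness, was that of all genes to 2 decimals. Relative to equally bright probes their median was 0.16, beside 0.18 for the members. The other TOP mRNAs were led by the elongation factor subunits Eef1d (2524 and 2253 units, 0.42 ± 0.14) and Eef1a1 (8895 and 7543 units, 0.34 ± 0.14). Tpt1 was at 0.30 ± 0.12, and Nap1l1 was the lowest (2016 and 1070 units, -0.33 ± 0.10).

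The initiation factors lay lower, with a median of -0.10 and 6 of 29 above 0, against 57.0% of all genes. Eif6, which keeps the subunits apart (266 and 249 units, 0.49 ± 0.12), and Eif3k (331 and 305 units, 0.46 ± 0.12) were the highest, and Eif3c (2153 and 1101 units) was at -0.39 ± 0.14. Eif2s3x, X-linked, was at -0.68 ± 0.15 with probes at -2.10 and 0.73. The 77 mitochondrial ribosomal proteins, a list added after the data had been seen, had a median of -0.11. Above 0 were 21 of them, against 57.0% of all genes. With no matching for brightness, the cytosolic family's median stood 0.27 above theirs. That gap was 0.12 after quantile normalization and 0.11 after normexp with quantile normalization. Relative to equally bright probes, the medians were -0.002 for the mitochondrial list, -0.04 for the initiation factors and 0.18 for the members. Mrpl1 (264 and 119 units) was the lowest at -0.56 ± 0.15, and Mrpl24 (168 and 157 units) the highest at 0.48 ± 0.18.

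Ribosome assembly factors were split, with 23 of 48 above 0 and a median of -0.02. The counts in this paragraph stand beside 57.0% of all genes above 0. Only Ddx10, a helicase of pre-rRNA processing (228 and 99.0 units, -0.62 ± 0.20), was at least 1.5-fold lower, against 5.69% of all genes. Of the 14 genes of RNA polymerase I and its factors, which make the rRNA, 9 were below 0 (median -0.03), with Taf1b at -0.43 ± 0.12 and Taf1a at 0.41 ± 0.22. The 12 elongation and termination factors had a median of -0.07, and their lowest was the neuronal Eef1a2 (897 and 402 units, -0.57 ± 0.20). The 10 measured ribosome quality control genes had a median of -0.07, with the ubiquitin ligase Rnf10 (2273 and 1239 units) at -0.29 ± 0.20. In the mTORC1 list, 12 of 18 were above 0 (median 0.08), Larp1 (5158 and 2750 units) was at -0.33 ± 0.14, Mycn, a driver of ribosome production (2665 and 1323 units), at -0.43 ± 0.20 and Rps6kb2, an S6 kinase (57.4 and 52.9 units), at 0.46 ± 0.21.

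**Figure D4:**
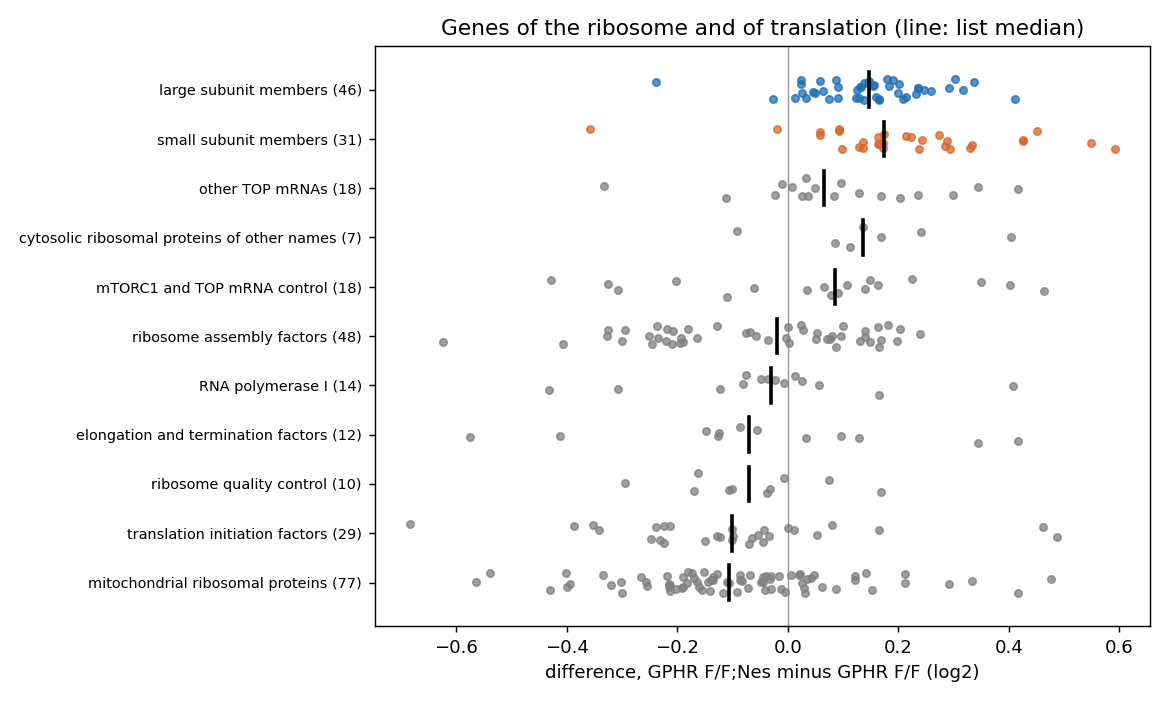
Difference of each gene (log2, GPHR F/F;Nes less control, points) in the large and small subunit and in 9 other lists of the ribosome and translation, with a line at each list's median. The subunit medians are 0.15 and 0.17, those of the initiation factors and mitochondrial ribosomal proteins -0.10 and -0.11, none matched for brightness.

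Markers of cell types differed beside these values. All 10 neuronal markers were below 0 (median -0.20), and their summed level, in multiples of the 75th percentile, was 86.5 in the control and 68.3 in GPHR F/F;Nes. The summed level of 6 markers of progenitors and dividing cells was 17.01 and 25.4 (5 of 6 above 0), that of 6 astrocyte markers 16.0 and 21.4 (5 of 6), and that of 7 oligodendrocyte lineage markers 8.81 and 3.92 (4 of 7). The last difference lay in Gpr17, without which the other 6 markers summed to 2.90 and 2.84. The sum was 1.54 and 2.55 for 5 of 7 microglial markers, with P2ry12 and Tmem119 not measured, and 0.654 and 1.69 for 4 of 7 endothelial and mural markers, without Cldn5, Cdh5 and Rgs5. Meningeal markers summed to 7.30 and 9.88 (5 of 6 above 0). Their median difference was 2.03, with 4 of 6 at least 2-fold higher, against 7.93% of all genes, so the sum understates most of them. The sum for 4 of 6 choroid plexus markers was 0.657 and 5.48, without Kl and Clic6 (0.556 and 1.36 when Ttr is also left out). Of 6 red blood cell markers only Hba-a1 was measured, summing to 0.190 and 0.157. The part of these differences in the ribosomal protein values was not tested. In brain RNA, fewer cells of a type and less RNA per cell cannot be told apart.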

How the data were processed

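Brain RNA was prepared with TRIzol and carried the Cy3 dye from Agilent low-input amplification, per the labels, and the scans were read with Agilent Feature Extraction 11.5.1.1, per the submitters' processing notes. The deposited scanner files give a linear intensity per spot, background-subtracted and corrected for spatial trends per the file headers. The deposited value table is on the log2 scale and differs from the log2 of the processed signal by a constant on each array (within 0.001 for 99.9% of its probes). Its medians were -3.19 in the control and -2.92 in GPHR F/F;Nes, it is not centred per probe, its direction follows the scanner files, and the origin of the constants was not given in the sources used here. Both arrays shared 1 slide and 1 scan. The probes' genome build is mm9, per the file headers.

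Each array held 62976 spots. Outlier spots were left out, repeated spots were averaged as log2 values (56603 probes), and each array's 75th percentile was subtracted. A probe was measured if well above background on both arrays (36717 probes), and genes took the mean of their measured probes. Names were checked against RefSeq gene and promoter tables (GRCm38.p6), and all 80 members matched the gene table. The members, gene lists and alternatives were chosen with earlier results of these data known. Named were Gpr89, the genes of the role lists, the 10 highest and 10 lowest members, the 5 brightest and 5 dimmest, members whose probes differed by at least 0.5, members not measured, up to 4 genes with the largest differences of each other list, and cell type markers. Values of 2 genes that this rule takes are not reported here. With 1 array per group no test was made. Alternatives covered scaling, background correction, the value table, dim-probe filters, rules for several probes, outlier spots, member sets, brightness windows and fold thresholds. Chosen after seeing the data were the fits without GA repeat probes, with RefSeq mRNA probes alone, and with member probes of at least 1000 units alone. The calculation was tested on simulated arrays. Python 3.11.15, numpy 2.4.6, pandas 2.3.3, R 4.3.3 and limma 3.58.1 (loess, span 0.3, and normexp, offset 50) were used.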

Additional observations from a re-analysis of the deposited data

How the results depend on the processing

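The median differences depended on the scaling, since it sets 0. Centred on each array's median, they were -0.11 for all members, -0.13 for the large and -0.10 for the small subunit, and scaled to the spike-in probes -0.87, -0.88 and -0.86, with the median of all genes moving from 0.07 to -0.20 and -0.96. Quantile normalization gave 0.074 for all members and 0.068 for the large subunit, and normexp with quantile normalization gave 0.0735, 0.066 for the large and 0.098 for the small subunit, with 56 and then 57 of the 77 members above 0. The members' difference from equally bright probes kept its direction in all alternatives (0.075 with the brightest probe of each gene, otherwise 0.11 to 0.19). So did the large minus small difference (-0.025 to -0.070). Median centring and spike-in scaling shift each array by a constant and so could not alter either difference. The value table is nearly such a shift. The count of members at least 1.5-fold higher was 0 with median centring, quantile normalization, the loess correction, normexp, spike-in scaling, the stricter dim-probe filter, the median over probes, without GA repeat probes, with RefSeq mRNA probes alone, with probes of at least 1000 units alone, and at a 2-fold threshold. It was 2 with no filter and 9 at a lower threshold (log2 difference of 0.32), which 30.6% of all genes passed. The count at least 1.5-fold lower was 1 with median centring, 1 with no filter, 1 at that lower threshold and 74 with spike-in scaling. In all, 90 of 119 alternative values stayed within the SD of a spot difference (0.074), or within 1.5 times for counts. These include the values that a shift by a constant could not alter. With 1 array per group no replicate could be left out. No paired analysis was possible because each group has 1 sample. Dim probes, near background, limit Rpl37 and the discordant members.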

Other observations

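The 4 X-linked members were Rpl10, Rpl36a, Rpl39 and Rps4x, and their differences ran from 0.01 (Rpl36a) to 0.33 (Rps4x), inside the range of the autosomal members, on 2 arrays that differ in Xist.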
